A study of Mus musculus with 16 samples.

Results

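The interaction of genotype with diet was measured in mouse liver: the ethanol response of mice lacking Zfp36l1 in the liver, minus the ethanol response of wild-type mice. It was estimated from all 16 libraries of the series for 11298 of 35275 gene IDs, those with an FPKM (a read density that corrects for gene length and for the library's depth) of at least 1 in at least 4 libraries. The 4 groups held 4 libraries each: wild-type mice (WT) on a control diet, WT on an ethanol diet, liver-specific Zfp36l1 knockout mice (labelled L1 LKO, here LKO) on the control diet, and LKO on the ethanol diet. RNA was total RNA of whole liver. The series' title states the liver restriction of the deletion, and the labels used here give no Cre driver, strain, sex, age, diet composition or feeding time. The labels do not say whether libraries of a group came from separate animals, so p-values measure the spread between these libraries. Libraries are numbered in record order within a group, and no label states a pairing across groups, although the numbers in some titles are consecutive between diets.

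ZFP36L1 belongs to the ZFP36 family of zinc finger proteins. They bind AU-rich elements in the 3′ untranslated region of messenger RNAs and recruit the machinery that removes the poly(A) tail, so that the bound transcript decays. Fgf21, a hormone secreted by the liver under metabolic stress, is named in the title as a transcript under this control. The interaction asks whether the deletion changed the response to ethanol: a positive value means that the LKO response lay above the WT response, and a negative value below it.

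The 7-mer at the core of AU-rich elements, TATTTAT in DNA letters, was searched on the sense strand of each gene's 3′ untranslated region, overlapping matches included, in the transcript with the longest coding sequence (GENCODE M21 on GRCm38). Fgf21 held 4 matches in a 134-base region. Of the 23 genes with the smallest interaction p described below, 9 held it, 7 of the 11 positive and 2 of the 12 negative. Inhba held 5 matches in 4492 bases, Olfr1034 3 in 3326, Ppp1r3b 2 in 3276, and Slc30a1 and Adh7 1 each in 3492 and 2176. Slc30a10 held 2 matches in 4207 bases, Slc34a2 1 in 2034, Hamp 1 in 109 and Cdkn2d 1 in 563. One site each of these last 4 genes, and 2 of Fgf21, are given 5′ to 3′ to show what the searched element looks like in its context, with the 7-mer in capitals:
Fgf21, chr7:45613961-45613989, minus strand: gggtttccactTATTTATtacgggtattt
Fgf21, chr7:45613935-45613963, minus strand: tttatcttattTATTTATtttagtttttt
Slc30a10, chr1:185465060-185465088, plus strand: gaacgtcagctTATTTATagcacttatag
Slc34a2, chr5:53070898-53070926, plus strand: tttatgtggcaTATTTATagctatgcatc
Hamp, chr7:30942408-30942436, minus strand: ctcaaccccatTATTTATtcctgccctcc
Cdkn2d, chr9:21288465-21288493, minus strand: tgaaatataaaTATTTATtgctttatgga

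Of all tested genes with an annotated 3′ untranslated region, 26.5% of 10529 held the 7-mer. Among the 158 genes with a positive interaction at an unadjusted p under 0.05 it was found in 32.6% of the 92 with such a region, and among the 204 with a negative interaction in 13% of 192. The regions differed in length in the same order, with medians of 919, 1377 and 546 bases. Without WT ethanol library 2 the shares were 31.9% of 69 and 18.8% of 362. A longer region holds a 7-mer more often, and the part of length in these shares was not tested. The shares are a description of letters, not of binding.

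WT ethanol library 2 stood apart from the other 15 libraries. Whole reads recovered from the steps of the FPKM values gave it 9884479 reads against 19069828 to 24768501, mitochondrial genes held 29.7% of its summed FPKM against 5.87% to 10.2%, and its gene-wise Spearman correlation with the rest had a median of 0.688 against 0.933 to 0.947. The median within-group SD on the log2 scale was 0.636 in the WT ethanol group, 0.326 without that library, and 0.225 to 0.294 in the other 3 groups. The remaining 15 libraries also split within every group: the first principal component of the deviations from the group means held 40% of the within-group variance and separated libraries 1 and 2 of each group from libraries 3 and 4. No batch is named in the labels. WT ethanol library 1 lay farthest out on this component. The counts and gene lists are therefore given with and without WT ethanol library 2, and a named gene's interaction without it wherever that moved the value by over 1.5 times. Several leading genes are also given within each side.

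No gene passed the test of the interaction. With limma's moderated test on log2(FPKM + 1) and Benjamini-Hochberg adjustment over the 11298 genes, 0 genes (0%) had an adjusted p under 0.05, and the smallest adjusted p was 0.812. The count was again 0 (0%) without WT ethanol library 2, with a smallest adjusted p of 0.578. At an unadjusted p under 0.05 there were 362 genes (3.2%), 158 positive and 204 negative, and without that library 499 genes (4.42%), 121 positive and 378 negative, of which 248 were shared. The split by sign depended on the scaling: with median-of-ratios scaling it was 333 positive and 210 negative with all libraries, and 304 and 285 without WT ethanol library 2. The median interaction of all genes without that library moved from -0.123 to 0.007 under that scaling, so directions of gene lists are read against the median of all genes.

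The count differed with the libraries fitted and their weights. Leaving out WT ethanol library 1 gave 6 genes with an adjusted p under 0.05, and none of the other 15 libraries did so when left out. Array weights, which let limma weigh each library by its fit to its group, gave 506 of 11298 genes, 76 positive and 430 negative. Among them were 19 of the 23 leading genes described below. Those 23 were chosen by their p in these same libraries, which favours such a share. Those weights ranged in the WT ethanol group from 0.0418 for library 2 to 5 for library 3, so that group's mean rested largely on library 3. The weights of the other groups changed too, from 0.446 for LKO ethanol library 2 to 3.3 for LKO control library 2. Weights estimated by REML, which stopped before converging, gave WT ethanol library 3 the lowest weight, 0.014, and library 4 of that group 1.8, with 11 genes called. The 2 sets of weights thus disagree on library 3, and no fit reweighted the WT ethanol group alone.

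The design left wide intervals. In the median gene the 95% interval of the interaction reached 0.882 log2 units to either side of the estimate, and 0.649 without WT ethanol library 2. The interval lay within 1 log2 unit of 0 on both sides for 3522 genes (31.2%), or 6943 (61.5%) without that library. That unit is on the log2(FPKM + 1) scale, and in genes near 1 FPKM it stands for a larger fold in FPKM itself. For 4 genes the unadjusted interval lay wholly beyond 1 log2 unit: Slc30a10, Slc34a2 and Cyp2c37 above and Hamp below, none of them past the adjusted test. The number was again 4 without WT ethanol library 2, with a predicted gene in place of Cyp2c37. For the other genes the interval crossed a difference of 1 unit.

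The ethanol responses themselves were called more often, and how often depended on WT ethanol library 2. In WT, ethanol changed 472 genes (4.18%), 292 upward and 180 downward, and without that library 1071 (9.48%), 817 upward and 254 downward. In LKO it changed 48 genes (0.425%), 19 upward and 29 downward. Without that WT library, which enters the LKO test only through the shared spread, the LKO count was 409 (3.62%), 251 upward and 158 downward. Both responses share 1 estimate of spread, and the difference between those counts is not a test of the interaction. The WT groups did not overlap in FPKM for 1138 genes (10.1%) and the LKO groups for 1389 (12.3%). Both pairs were apart in the same direction for 354 genes and in opposite directions for 2, Slc30a10 and Cdkn2d. With WT ethanol library 2 left out, the WT groups were apart for 2341 genes (20.7%), and both pairs for 724 in the same direction and 4 in opposite ones. The 4 included Rcl1, a ribosome assembly factor, and Paics, an enzyme of purine synthesis, which were named after their values were seen. Rcl1 was at 6.5 FPKM in that library against 64.3 to 89.4 in the other 3 of its group, and its interaction went from -0.09 to -0.93. Paics was at 10.4 FPKM against 96.2 to 113, and went from -0.14 to -0.94.

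**Figure D1:**
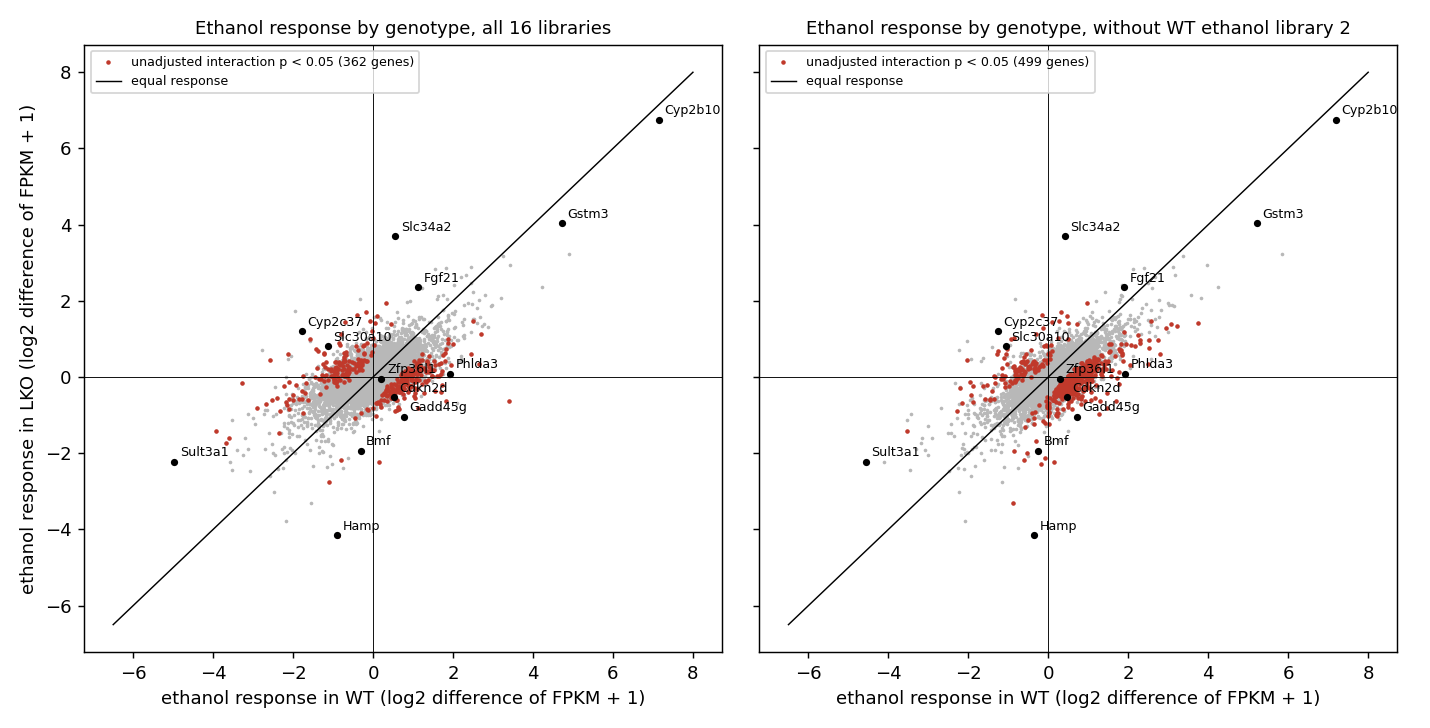
Each point is 1 gene, with its ethanol response in WT on the horizontal axis and in LKO on the vertical axis (log2 difference of FPKM + 1), from all 16 libraries on the left and without WT ethanol library 2 on the right. Genes at an unadjusted interaction p under 0.05 are red, 362 on the left and 499 on the right, black points mark genes named in the text, and none passed the adjusted test.

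Zfp36l1 (ENSMUSG00000021127, chromosome 12, 80107754 to 80113013) was lower in every LKO library than in every WT library, as the genotype labels state. In order of library, its FPKM was 9.79, 9.3, 25.5 and 14.8 in WT control, 9.87, 13.2, 21 and 23.4 in WT ethanol, 1.03, 0.836, 1.42 and 1.4 in LKO control, and 0.688, 0.572, 1.6 and 1.76 in LKO ethanol. Its interaction was -0.25, with a 95% interval from -1.21 to 0.71. In both genotypes the control and ethanol groups overlapped.

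Fgf21 (ENSMUSG00000030827, chromosome 7, 45613886 to 45615490) showed no detectable interaction, and its interval spans large differences either way. Its FPKM was 3.95, 4.28, 37.2 and 8.05 in WT control, and 16.2, 3.15, 55.3 and 48.9 in WT ethanol. Its LKO values were 7.04, 6.48, 13.1 and 6.47 on control diet, and 57, 113, 63 and 9.46 on ethanol. The WT groups overlapped through control library 3 and ethanol library 2, and the LKO groups through ethanol library 4, which lay below control library 3. The response was 1.12 in WT and 2.36 in LKO, which gave an interaction of 1.24 (95% interval -1.21 to 3.7, limma adjusted p = 0.927). The interaction was 0.46 (interval -1.72 to 2.64) without WT ethanol library 2, where the WT response was 1.90. Among libraries 1 and 2 it was 1.64, and among libraries 3 and 4 it was -0.18.

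The other measured members of the ZFP36 family gave no call either. Zfp36, which encodes tristetraprolin, had an interaction of 0.33 with all libraries and of -0.58 without WT ethanol library 2, where its FPKM was 1.69 against 20.9, 48.2 and 34.7 in the other 3 libraries of the group. Zfp36l2 had -0.01 and -0.62. Of the 6 genes of the Fgf21 axis, the hormone, its receptors and its co-receptor among them, 5 were positive, with values from -0.54 for the receptor Fgfr1 to 1.24 for Fgf21 itself, and 0 were at an unadjusted p under 0.05. The counts were 4 and 0 without WT ethanol library 2.

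The genes named next are among those with the smallest unadjusted interaction p in each direction, 11 positive and 12 negative. They are the extremes of 11298 genes, and none passed the adjusted test with all 16 libraries or without WT ethanol library 2 (adjusted p from 0.812 to 0.927 and from 0.578 to 0.968).

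A metal exporter led the list. Slc30a10 (ENSMUSG00000026614, chromosome 1, 185454848 to 185468762) encodes the transporter that moves manganese out of hepatocytes. Its FPKM was 3.5, 6.46, 7.82 and 4.87 in WT control and 3.23, 1.58, 1.83 and 1.48 in WT ethanol. It was 5.81, 4.25, 6.06 and 5.63 in LKO control and 14.5, 6.3, 12.7 and 9.19 in LKO ethanol. Every WT ethanol library was below every WT control library, and every LKO ethanol library was above every LKO control library. It fell in WT (log2 -1.13, limma adjusted p = 0.028), while the LKO response was 0.81 (adjusted p = 0.27). The interaction was 1.94 (SE 0.385, 95% interval 1.13 to 2.75, limma unadjusted p = 0.000102, adjusted p = 0.812) and 1.87 without WT ethanol library 2. It was 1.29 among libraries 1 and 2, and 2.23 among libraries 3 and 4.

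Slc30a1, which encodes the zinc exporter of the cell membrane, had an interaction of 1.22 (interval 0.42 to 2.02). Its FPKM was 8.78 to 9.51 in WT control and 9.49, 3.07, 8.57 and 7.09 in WT ethanol. Its LKO values were 5.49, 6.94, 8.27 and 5.9 on control diet and 15.3, 11.3, 13.5 and 9.43 on ethanol, so the LKO groups were apart and the WT groups were not. Without WT ethanol library 2, where it was lowest, the interaction was 0.92 and the LKO rise of 0.8 passed the test (limma adjusted p = 0.0175, against 0.268 with all libraries).

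Slc34a2, a sodium-phosphate cotransporter that is also listed among the bile duct markers used here, had the largest positive interaction of the 23 genes. Its FPKM was 0.0754 to 0.511 in WT control and 1.86, 1.5, 0.276 and 0.288 in WT ethanol. It was 0.05 to 0.374 in LKO control and 20.1, 5.37, 55.6 and 5.76 in LKO ethanol. Every LKO ethanol library exceeded all 12 others. It rose in LKO (log2 3.7, limma adjusted p = 0.00505), whereas the WT response was 0.56 (adjusted p = 0.579). The interaction was 3.14 (interval 1.63 to 4.65) and 3.28 without WT ethanol library 2. The summed FPKM of the other 10 bile duct markers found in the table overlapped between the LKO groups, at 20.9 to 29 in LKO control and 14.7 to 25.3 in LKO ethanol. A single marker held much of it, at 14 to 21.8 FPKM in LKO control and 8.16 to 18.4 in LKO ethanol. The sum therefore says little of the other markers. In WT the sum was 22.9 to 36.2 on control diet and 17.4 to 32.5 on ethanol, with library 2 of that group at 79.7.

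Ppp1r3b and Mid1ip1 fell with ethanol in WT, and their LKO responses of -0.13 and 0.01 were not called. Ppp1r3b encodes a subunit that brings protein phosphatase 1 to glycogen. It went from 108 ± 26.1 to 24.6 ± 7.43 FPKM in WT (SD, n = 4) and from 69.1 ± 7.52 to 75.1 ± 40 in LKO, where ethanol library 2 was at 19.3 and the other 3 at 73, 104 and 104. It fell in WT (log2 -2.11, limma adjusted p = 0.0121), and the interaction was 1.98 (interval 0.73 to 3.23). Mid1ip1, an activator of acetyl-CoA carboxylase in fat synthesis, went from 17.7 ± 10.7 to 4.43 ± 2.42 FPKM in WT (log2 -1.75, adjusted p = 0.0328) and from 22.9 ± 2.51 to 25 ± 12.3 in LKO, with an interaction of 1.77. Inhba, which encodes a subunit of the hormone activin, had an interaction of 1.6 and no called response in either genotype.

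Ppp1r3b also belongs to the list of gluconeogenesis, glycolysis and insulin signalling. Of its 24 tested genes 4 were positive and 1 negative at an unadjusted p under 0.05, beside 158 and 204 of all 11298 genes. There was 1 in each direction without WT ethanol library 2. G6pc, the last enzyme of glucose release, was at 131, 417, 202 and 160 FPKM in WT control and 13.7, 1.93, 156 and 28.7 in WT ethanol, and the interaction of 3.13 became 2.17 without library 2. The LKO groups overlapped widely, at 86.9 to 231 on the control diet and 42.8 to 386 on ethanol. Ppp1r3g, another glycogen-targeting subunit, went the other way. It was at 4.17 to 5.03 FPKM in LKO control and 0.137 to 0.494 in LKO ethanol, a fall (log2 -2.17, limma adjusted p = 0.0211). In WT it was at 1.71 to 4.15 FPKM on the control diet, and 3 ethanol libraries lay below that at 0.257 to 0.392, with library 3 at 5.37. The WT response was -0.81 (limma adjusted p = 0.261). The interaction of -1.36 became -0.79 without WT ethanol library 3.

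Cytochrome P450 genes of the Cyp2c family, which oxidise drugs, steroids and fatty acids, made up 3 of the 11 leading positive genes. Cyp2c37 was at 714, 369, 446 and 334 FPKM in WT control and 710, 42.9, 140 and 62.6 in WT ethanol. The LKO libraries had 212, 342, 202 and 112 on control diet and 420, 366, 440 and 689 on ethanol, where the groups were apart. WT ethanol library 1 lay with the controls and the other 3 lay below all of them. The interaction was 2.99 (interval 1.12 to 4.86) with all libraries, 0.07 among libraries 1 and 2, and 3.9 among libraries 3 and 4.

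Cyp2c54 followed the same library. It was at 104 to 136 FPKM in WT control, and at 160, 5.26, 16 and 7.21 in WT ethanol. Its LKO levels were 64.8, 69.7, 131 and 163 on control diet and 99.8, 101, 221 and 152 on ethanol. Its interaction was 3.04, and 0.02 and 3.7 within the sides. Cyp2c39 was more even, with 8.3 ± 2.35 and 2.08 ± 1.38 FPKM in WT and 5.89 ± 2.56 and 4.9 ± 1.18 in LKO (SD, n = 4). It fell in WT (log2 -1.68, limma adjusted p = 0.0135) and had an interaction of 1.51, with 0.78 and 1.36 within the sides.

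Leaving out WT ethanol library 1 brought 6 genes past the adjusted threshold. Without it Cyp2c54 had an interaction of 4.05 (limma adjusted p = 0.0137), Sult2a8, a bile acid sulfotransferase, of 3.52 (0.0137), Cyp2c37 of 3.81 (0.0341) and Cyp2c50 of 3.51 (0.0409). Phlda3 (-2.26) and Il3ra (-2.85) passed in the negative direction, both with an adjusted p of 0.0409. With all libraries the 6 values were 3.04, 2.49, 2.99, 2.58, -1.83 and -2.09. Cyp2c50 and Il3ra, a subunit of the interleukin 3 receptor, were named after their values were seen. Il3ra was at 0.922, 32.4, 8.24 and 11.3 FPKM in WT ethanol, so library 1 was again the one near the controls, at 1.26 to 2.41. Near-identical copies in the Cyp2c, Cyp2b and Sult2a families can share reads, and how the counting assigned such reads is not given in the sources used here.

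Among the 36 tested targets of the xenobiotic receptors CAR and PXR, 7 were positive at an unadjusted p under 0.05 and 0 negative, and the list's median interaction was 0.67 beside 0.09 over all genes. The counts were again 7 and 0 without WT ethanol library 2, and the medians 0.32 and -0.12. Cyp2c29 was at 310, 240, 247 and 218 FPKM in WT control and 742, 82.9, 282 and 145 in WT ethanol, with an interaction of 1.88, or 1.40 without library 2. In LKO it was at 244 to 428 on the control diet and 805 to 1586 on ethanol. The LKO rise of 1.71 passed the test without WT ethanol library 2 (limma adjusted p = 0.0243, against 0.165 with all libraries).

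Cyp2b10, the classical CAR target, was the gene most changed by ethanol and showed no detectable interaction. It rose in WT from 2.07 ± 0.961 to 490 ± 344 FPKM (SD, n = 4) and in LKO from 4.27 ± 1.53 to 576 ± 209, by 7.15 and 6.75 on the log2 scale (limma adjusted p = 5.25e-08 and 1.32e-07). The interaction was -0.4, with an interval from -1.66 to 0.86.

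With 16 libraries all 12 tested genes of ethanol breakdown were positive, beside 58% of all genes, with 2 at an unadjusted p under 0.05 and a median of 0.58. With WT ethanol library 2 left out, 9 were positive, beside 34.4% of all genes, again 2 at that threshold, and the median was 0.26. Adh7, an alcohol and retinol dehydrogenase, was at 12.3, 9.44, 10.6 and 17.1 FPKM in WT control and 4.9, 2.73, 5.71 and 4.3 in WT ethanol. The LKO libraries had 4.24, 4.59, 6.24 and 6.32 on control diet and 5.9, 4.67, 2.58 and 8.41 on ethanol. It fell in WT (log2 -1.3, limma adjusted p = 0.0186) to about the level that LKO had on both diets, and the interaction was 1.25. Aldh1a1, a retinal and acetaldehyde dehydrogenase, had 1.15, with 480 ± 149 and 283 ± 126 FPKM in WT and 262 ± 65.2 and 327 ± 15 in LKO (SD, n = 4). Olfr1034, the remaining leading positive gene and annotated as an olfactory receptor, fell in WT from 3.46 ± 1.36 to 0.428 ± 0.345 FPKM (log2 -1.62, adjusted p = 0.00207), and had an LKO response of -0.61.

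**Figure D2:**
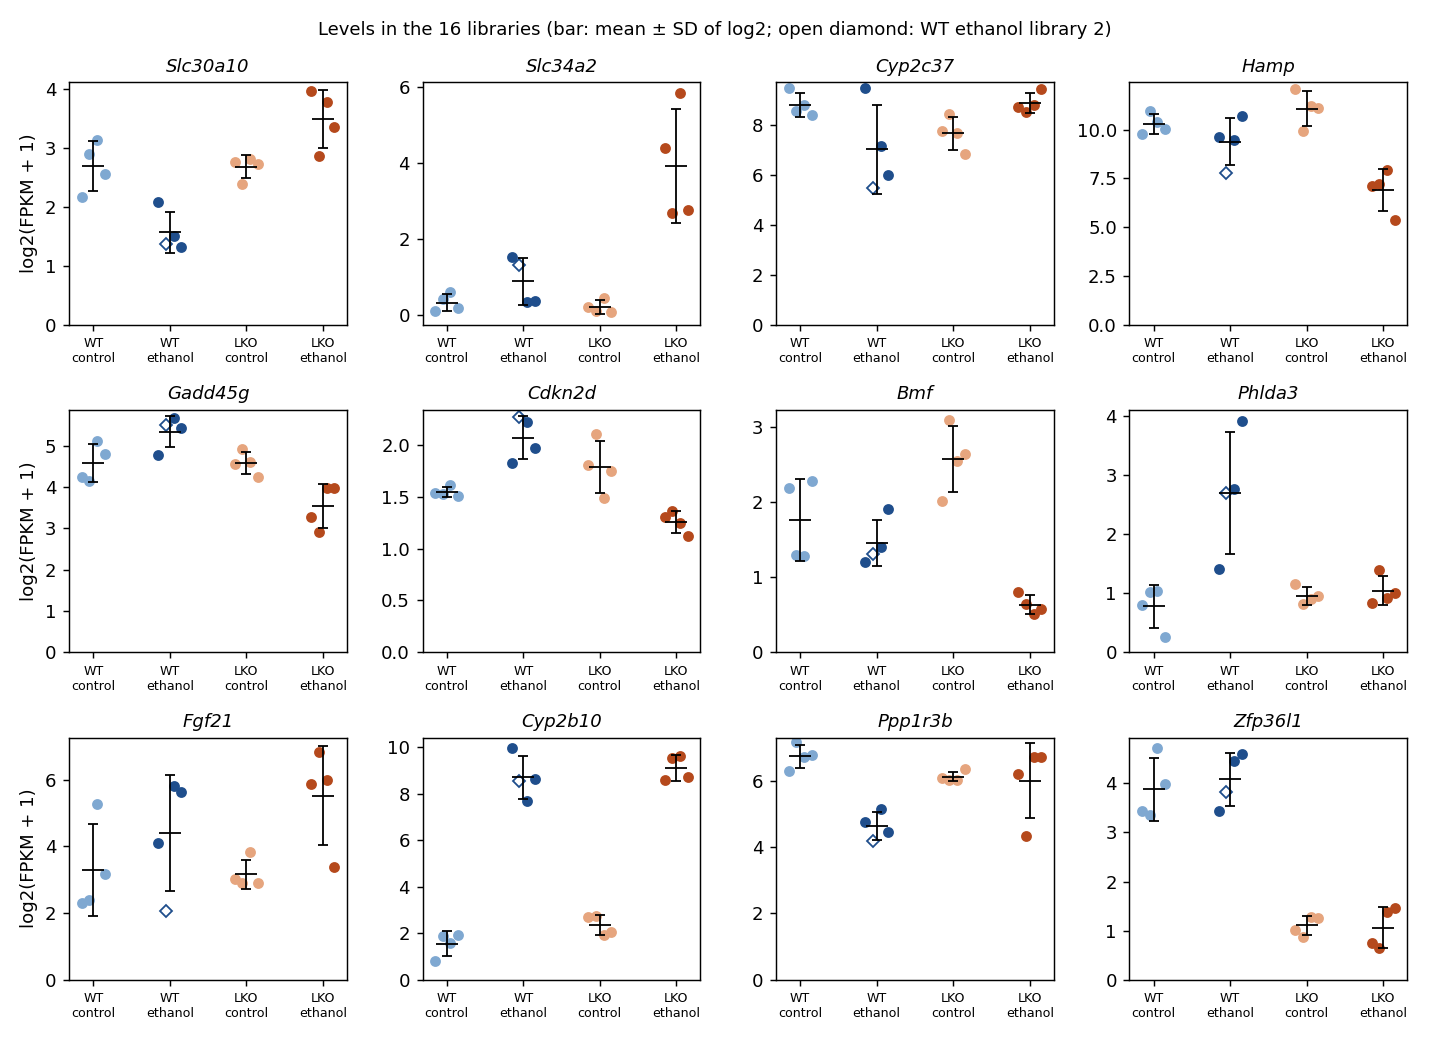
Levels of 12 genes in the 16 libraries, as log2(FPKM + 1), by group, with the mean and SD of the log2 values as bars and WT ethanol library 2 as an open diamond. Slc30a10 and Cdkn2d are the genes whose control and ethanol groups are apart in both genotypes in opposite directions, and Fgf21 shows the overlap of its groups.

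Of the 12 leading negative genes, Hamp had the largest value. Hamp (ENSMUSG00000050440, chromosome 7, 30942368 to 30944032) encodes hepcidin, the liver hormone that blocks the cellular iron exporter. Its FPKM was 873, 1975, 1359 and 1034 in WT control and 794, 218, 710 and 1672 in WT ethanol. It was 4389, 966, 2380 and 2202 in LKO control and 140, 148, 246 and 40.7 in LKO ethanol. The LKO groups were far apart, and the WT groups overlapped. It fell in LKO (log2 -4.16, limma adjusted p = 0.00563). The WT response was -0.89 (adjusted p = 0.442), or -0.35 without WT ethanol library 2. The interaction was -3.28 (SE 0.856, interval -5.08 to -1.47, adjusted p = 0.927). Without WT ethanol library 2, the lowest of its group, it was -3.82 (interval -5.42 to -2.21, adjusted p = 0.578), and within the sides it was -3.11 and -4.38. Hamp may share reads with its near copy Hamp2, whose interaction was 0.07, and 0.91 without that library (named after its values were seen). Of the 19 tested genes of iron regulation, 2 were negative at an unadjusted p under 0.05, Hamp and Atoh8, a factor that acts on the hepcidin promoter (-1.04). Only Hamp was so without WT ethanol library 2, where Atoh8 had -0.90.

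Bmf, which encodes a BH3-only protein that promotes apoptosis, behaved likewise. Its FPKM was 3.56, 1.46, 1.42 and 3.85 in WT control and 1.31, 1.48, 1.63 and 2.75 in WT ethanol. It was 3.05, 7.56, 4.83 and 5.21 in LKO control and 0.744, 0.562, 0.422 and 0.496 in LKO ethanol, below every other library. It fell in LKO (log2 -1.94, limma adjusted p = 0.00505), with a WT response of -0.31 and an interaction of -1.63 (interval -2.43 to -0.84), or -1.68 without WT ethanol library 2.

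Gadd45g and Cdkn2d, a stress-induced growth arrest gene and an inhibitor of cyclin-dependent kinases 4 and 6, had estimates of opposite sign in the 2 genotypes. Gadd45g was at 18, 16.7, 33.9 and 26.9 FPKM in WT control and 26.7, 44.2, 50 and 42.1 in WT ethanol, with an overlap. Its LKO levels were 22.5, 29.2, 23.4 and 18 on control diet and 8.72, 6.6, 14.7 and 14.8 on ethanol, with none. Its responses of 0.77 and -1.04 were not called, and the interaction was -1.81 (interval -2.73 to -0.89). Cdkn2d was at 1.9, 1.88, 2.07 and 1.85 FPKM in WT control and 2.55, 3.82, 3.66 and 2.92 in WT ethanol. In LKO it was at 2.49, 3.3, 1.81 and 2.37 on control diet and 1.47, 1.57, 1.37 and 1.18 on ethanol. Both pairs of groups were apart, the responses were 0.52 and -0.53, and the interaction was -1.06 (interval -1.56 to -0.55). Neither response passed the adjusted test, with limma adjusted p = 0.0911 and 0.241.

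A further set of genes rose in WT and had an LKO response near 0. Phlda3, a p53 target that restrains Akt, was at 0.201 to 1.06 FPKM in WT control and 1.65, 5.5, 5.8 and 14.2 in WT ethanol. It was at 0.753 to 1.23 in LKO control and 0.781 to 1.62 in LKO ethanol. It rose in WT (log2 1.92, limma adjusted p = 0.00877), with an LKO response of 0.09 and an interaction of -1.83. Within the sides that value was -0.37 and -2.65. Uap1l1, a relative of the enzyme that makes UDP-N-acetylglucosamine, rose in WT from 1.49 ± 0.299 to 7.11 ± 3.98 FPKM (log2 1.59, adjusted p = 0.00864), and was at 2.1 ± 0.287 and 2.33 ± 1.38 in LKO. Its interaction was -1.56, and -0.51 and -2.23 within the sides.

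Ccn2, Csrp1 and Gja4 also rose in WT with an LKO response that was not called. Ccn2, a matrix-associated growth factor of fibrosis, rose in WT from 1.55 ± 0.607 to 3.21 ± 0.577 FPKM (log2 0.74, limma adjusted p = 0.0404) and was at 1.97 ± 0.468 and 1.44 ± 0.239 in LKO. Csrp1, a LIM protein of smooth muscle and stellate cells, rose in WT from 4.58 ± 0.534 to 13.3 ± 5.04 FPKM (log2 1.29, adjusted p = 0.0149) and was at 5.72 ± 1.26 and 5.35 ± 1.53 in LKO. Gja4, a connexin of arterial endothelium, rose in WT from 2.6 ± 0.515 to 11.3 ± 6.38 FPKM (log2 1.65, adjusted p = 0.0133) and was at 3.86 ± 1.49 and 3.89 ± 1.25 in LKO. Their interactions were -1.01, -1.38 and -1.62, and -0.93, -1.19 and -1.31 without WT ethanol library 2.

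Clip2, a microtubule linker, and Bex3 also rose in WT, by 1.34 and 1.38 on the log2 scale (limma adjusted p = 0.0016 and 0.0188), with LKO responses of 0.42 and -0.08 and interactions of -0.91 and -1.46. The Clip2 groups were apart in both genotypes in the same direction. Hcls1, an actin-binding protein of blood cells, had no called response in either genotype. Its interaction of -1.41 came from 0.63 in WT and -0.78 in LKO.

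**Figure D3:**
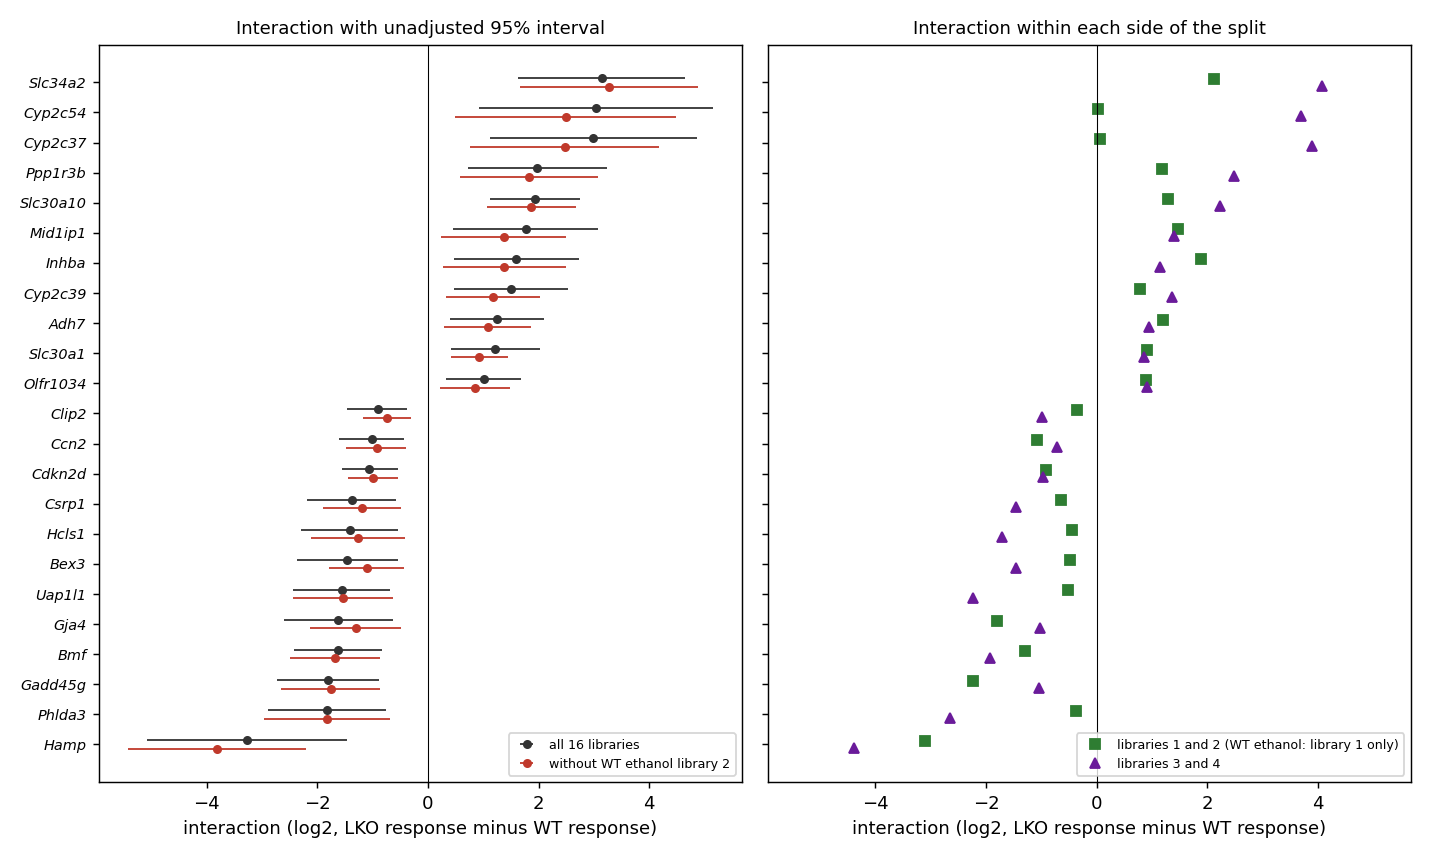
Interaction (log2, LKO response minus WT response) of the 23 leading genes: on the left with unadjusted 95% intervals for all 16 libraries and without WT ethanol library 2, on the right as point values within libraries 1 and 2 (squares, WT ethanol library 1 only) and within libraries 3 and 4 (triangles). The genes were chosen by their p, so their intervals leave out 0, and Cyp2c37 and Cyp2c54 lie near 0 among libraries 1 and 2.

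Over the whole table, the interaction kept its sign on both sides of the split for 4310 of 11298 genes (38.1%), and the median was 0.183 among libraries 1 and 2 and -0.295 among libraries 3 and 4. For the 362 genes at an unadjusted p under 0.05 it kept its sign for 319 (88.1%), which the choice by p favours. Among the genes named, the signs of the sides differed for Fgf21, Zfp36l2, Cyp2b10, Cdkn1a, Sult3a1, Ces3a, Mup3, A1bg, E2f1, Ccne1, Cyp2c29, Sult2a8, Lpl, Phgdh, Timp1, Cyp2c50 and Il3ra. The estimate from libraries 1 and 2 rests on 1 WT ethanol library. Whether the split was technical was not tested.

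Of the 362 genes, the WT response was the larger in size for 287 (79.3%) and the LKO response for 75, and over all 11298 genes the WT response was the larger for 63.3%. The genes were chosen by the interaction p, and the WT ethanol group had the widest spread, whose part in these shares was not tested. The estimates had opposite signs with the WT value above 0 in 113 genes and with it below 0 in 107. WT was larger for 378 of 499 genes (75.8%) without WT ethanol library 2, beside 61.5% of all genes.

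Genes chosen by the mean ethanol response of both genotypes were then described. In a balanced design with equal spread this contrast is independent of the interaction, although the WT ethanol group was more spread than the others. The mean response was called for 879 genes (7.78%), 519 higher and 360 lower. The estimates of the genotypes, called or not, had the same sign for 519 of 519 and 359 of 360, which the choice by their mean favours. Of the 519 higher genes, 22.7% had a positive interaction, with a median of -0.30 from median responses of 0.96 in WT and 0.71 in LKO. Of the 360 lower genes, 73.9% had a positive interaction, with a median of 0.34 from -1.23 in WT and -0.87 in LKO. Over all genes 6553 of 11298 (58%) were positive, with a median of 0.09. In a group with a wide spread, a choice by the mean response favours genes whose estimate in that group is large, here the WT response, so the difference between the medians is given as a description. Without WT ethanol library 2 there were 2312 such genes (20.5%), 1668 higher with a median interaction of -0.21 and 644 lower with a median of 0.08, beside -0.12 over all genes.

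Of the 5 genes with the largest mean rise, 3 were called in both genotypes. After Cyp2b10 came Gstm3, a glutathione transferase, which rose by 4.72 in WT and 4.04 in LKO on the log2 scale (limma adjusted p = 0.00118 and 0.00749), with an interaction of -0.68, or -1.19 without WT ethanol library 2. Gsta1, another glutathione transferase, rose in WT by 4.91 (adjusted p = 0.0136). In LKO ethanol it was at 5.01, 218, 4.07 and 5.45 FPKM, so 1 library held nearly all of the group's mean, and the interaction was -1.69 (interval -4.7 to 1.33), or -2.62 (interval -5.36 to 0.11) without WT ethanol library 2. Lcn2, a siderophore-binding protein of the acute phase, rose in WT from 24.2 ± 20.8 to 538 ± 510 FPKM (SD, n = 4; log2 4.22, adjusted p = 0.00478) and was at 21.5 ± 5.31 and 152 ± 111 in LKO, with an interaction of -1.85 (interval -3.91 to 0.22). Cdkn1a, the p53 target p21, rose by 3.24 and 3.19 (adjusted p = 0.0107 and 0.033), and its interaction was -0.05 (interval -1.94 to 1.83), or -0.18 without WT ethanol library 2.

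The 5 genes with the largest mean fall had wide intervals. Sult3a1, a sulfotransferase, fell in WT from 130, 142, 41.4 and 34.9 FPKM to 14.7, 0, 0.315 and 0.431 (log2 -4.97, limma adjusted p = 0.0344). The LKO libraries had 135, 125, 127 and 1.56 on control diet and 50.2, 0.272, 13.6 and 11.4 on ethanol, and the interaction was 2.75 (interval -1 to 6.49). Leaving out LKO control library 4, the lowest of its group, gave 1.33, and the values within the sides were -0.90 and 4.41. Ces3a, a carboxylesterase of the endoplasmic reticulum, fell in WT from 416 ± 37.7 to 56 ± 63.6 FPKM (adjusted p = 0.00605) and was at 634 ± 275 and 131 ± 98.8 in LKO, with an interaction of 1.08. Mup3, a major urinary protein, had 1.33, A1bg 0.59 (0.01 without WT ethanol library 2), and Slco1a1, an uptake transporter of organic anions, -1.59. None of the 10 genes was at an unadjusted interaction p under 0.05 with or without that library.

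Lists of liver pathways were described by their counts and medians, beside 158 positive and 204 negative genes at an unadjusted p under 0.05 and a median of 0.09 over all genes. Those values were 121, 378 and -0.12 without WT ethanol library 2. No member of any list passed the adjusted test with all 16 libraries or without WT ethanol library 2. With array weights 40 of the 75 genes described here did, beside 506 of all 11298, and many of the 75 were chosen by their interaction p. In cholesterol synthesis and uptake, 21 of 22 genes were positive, 3 of them at an unadjusted p under 0.05 and 0 negative, with a median of 0.84. When WT ethanol library 2 was left out, 20 of 22 were positive, 1 of them at that threshold, with a median of 0.55. Hmgcs1, which makes the precursor of mevalonate, fell in WT from 107 ± 48.9 to 25.9 ± 9.07 FPKM (SD, n = 4; limma adjusted p = 0.0207) and was at 60.4 ± 6.55 and 53.6 ± 44.2 in LKO. Its LKO ethanol values were 18.5, 38.3, 39.3 and 118, so library 4 alone lay above the LKO controls. Idi1, an isomerase of the pathway, and Stard4, a cholesterol carrier, fell in WT by 2.52 and 1.77 on the log2 scale (adjusted p = 0.0241 and 0.0137), with interactions of 1.93 and 1.18, or 1.35 and 0.77 without WT ethanol library 2.

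Lists of other hepatocyte functions were also mostly positive. In bile acid synthesis and transport 21 of 25 genes were positive, with a median of 0.63 that became 0.04 without WT ethanol library 2. The gene with the smallest p was Akr1d1, the reductase of bile acid synthesis, at 119 ± 27.6 and 60.8 ± 17.7 FPKM in WT and 106 ± 4.75 and 101 ± 30 in LKO (SD, n = 4), with an interaction of 0.85. Of the 15 sulfotransferases 13 were positive, with a median of 0.97, and 0.94 without that library. Sult2a8 was at 211, 222, 168 and 194 FPKM in WT control and 110, 4.76, 8.67 and 3.77 in WT ethanol, a fall (log2 -3.92, limma adjusted p = 0.00644). Its LKO levels were 225 to 419 on the control diet and 73.2 to 206 on ethanol, and both pairs of groups were apart in the same direction. The Sult2a8 interaction of 2.49 was -0.07 among libraries 1 and 2 and 2.92 among libraries 3 and 4. The median of the sulfotransferases within the sides was not computed. Of the 17 genes typical of hepatocytes around the central vein, 15 were positive, with a median of 0.72, and 0.73 without that library.

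Lipid lists were divided. In the list of lipid droplets and fat uptake 12 of 23 genes were positive, and the median of 0.06 became -0.31 without WT ethanol library 2. Lpl, which releases fatty acids from lipoproteins, was at 2.3 to 3.52 FPKM in WT control and 3.13, 11.4, 19.1 and 54 in WT ethanol. In LKO it was at 3.28 to 4.27 on the control diet and 4.48, 9.31, 2.38 and 5.81 on ethanol, and the interaction was -1.63. It was -1.02 without WT ethanol library 4, and 0.52 and -2.98 within the sides. G0s2, an inhibitor of the lipase ATGL, had 1.58, and Lipe, hormone-sensitive lipase, -0.86. Synthesis of fatty acids and triglycerides had 19 positive of 26 genes and a median of 0.46, which became 12 of 26 and -0.01 without that library. Oxidation and ketogenesis had 15 of 29 and a median of 0.34, which became 8 of 29 and -0.12.

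Stress lists lay on both sides. In the integrated stress response, 7 of 26 genes were positive, 3 were negative at an unadjusted p under 0.05, and the median was -0.24. These became 3, 4 and -0.58 without WT ethanol library 2. Chaperones of the endoplasmic reticulum had 18 positive of 23 and a median of 0.47, heat shock proteins 14 of 18 and 0.39, and NRF2 antioxidant genes 14 of 20 and 0.28. Those medians became 0.00, 0.01 and -0.09 without that library. Nupr1, a stress-induced chromatin protein, rose in WT from 0.805 ± 0.564 to 5.51 ± 1.11 FPKM (SD, n = 4; limma adjusted p = 0.00365) and was at 0.769 ± 0.14 and 2.78 ± 1.51 in LKO, with an interaction of -0.89. Phgdh, the first enzyme of serine synthesis, had -1.2. Its WT ethanol values were 0.706, 7.16, 1.68 and 1.91 FPKM, and without library 2, the highest, the interaction was -0.75. Eif4ebp1, a repressor of translation, rose in WT from 45.9 ± 1.2 to 114 ± 22 FPKM (adjusted p = 0.0489) and had -1.06. Of the p53 and cell cycle genes 4 of 17 were positive and 4 were negative at an unadjusted p under 0.05, with a median of -0.36. Without that library 0 of 17 were positive, 6 were negative at that threshold and the median was -0.73. Besides Phlda3 the smallest p belonged to Mcm6 and Mcm5 of the replicative helicase, with -1.02 and -1.17.

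The 30 tested mRNAs reported as targets of the ZFP36 family did not lean to either side: 17 were positive, 1 was positive and 2 negative at an unadjusted p under 0.05, and the median was 0.03. With WT ethanol library 2 left out, 10 were positive, 0 positive and 2 negative at that threshold, and the median was -0.28, beside -0.12 over all genes. E2f1 and Ccne1, regulators of entry into the cell cycle, had -0.91 and -0.93. E2f1 was at 0.61 to 0.867 FPKM in WT control and 0.69, 1.54, 4.47 and 2.26 in WT ethanol, and at 0.614 to 1.24 in all LKO libraries. Cry1, a repressor of the circadian clock, had 1.26, and WT control library 3 at 20.7 FPKM stood above the other 3 at 4.42 to 5.38. The Cry1 interaction was 0.79 without that library.

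Markers of macrophages and of stellate cells were mostly negative. Of the 18 tested markers of macrophages and Kupffer cells 1 was positive, 3 were negative at an unadjusted p under 0.05, and the median was -0.79. These became 0, 5 and -1.02 without WT ethanol library 2. The sum of the 20 macrophage markers was 333 to 830 FPKM in WT control, 542 to 995 in WT ethanol, 292 to 961 in LKO control and 209 to 1020 in LKO ethanol. The scavenger receptor Marco rose in WT from 8.19 ± 3.17 to 30.1 ± 14.2 FPKM (SD, n = 4; limma adjusted p = 0.0379). The LKO libraries had 4.06 to 10.5 on the control diet and 5.99, 22.1, 6.11 and 3.73 on ethanol, and the interaction was -1.62. Cd68, a lysosomal protein of macrophages, had -1.47, and Cd74, the invariant chain of MHC class II, -1.1. LKO ethanol library 2 was the highest of its group for Marco and Cd68. In whole liver, fewer cells of a type and less RNA per cell cannot be told apart.

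Of the 16 markers of stellate cells and fibroblasts 4 were positive, 3 were negative at an unadjusted p under 0.05, and the median was -0.50. These became 1, 4 and -0.58 without WT ethanol library 2. Their sum was 121 to 233 FPKM in WT control, 141 to 359 in WT ethanol, 137 to 220 in LKO control and 177 to 235 in LKO ethanol. Timp1, an inhibitor of matrix proteases, rose in WT from 0.221 ± 0.0552 to 2.74 ± 2.23 FPKM (SD, n = 4; limma adjusted p = 0.0268), as did the muscle filament protein desmin (Des) from 1.17 ± 0.241 to 3.31 ± 1.43 (adjusted p = 0.0296). Their interactions were -1.12 and -0.72, and that of Vim, vimentin, was -1.33. The part of these cells in the values of Csrp1, Ccn2, Gja4 and Hcls1 was not tested. Sinusoidal endothelial markers had 10 positive of 15, 0 at an unadjusted p under 0.05 and a median of 0.17. This became 6 of 15, 1 negative at that threshold and a median of -0.23 without WT ethanol library 2. Of the bile duct markers 3 of 4 tested were positive, of the neutrophil markers 2 of 3, and of the T, B and NK cell markers 2 of 5. Neutrophil markers summed to 1.69 to 6.82 FPKM in WT control and to at most 21.9 in the other groups, and the 7 erythroid markers to 2160 in WT ethanol library 2 against 100 to 286 elsewhere. Of 18 tested genes of hepatocyte identity 14 were positive, with a median of 0.28, or 0.10 without WT ethanol library 2.

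Inflammatory lists held no call. Of 26 tested cytokines and chemokines 9 were positive and 1, Il33, was negative at an unadjusted p under 0.05 (-0.57), with a median of -0.31. The list had 5 positive, 0 at that threshold and a median of -0.57 without WT ethanol library 2, where Il33 had -0.38. Interferon-stimulated genes had 9 positive of 28, 0 at that threshold and a median of -0.30, which became 2 positive, 3 negative at that threshold and -0.64 without WT ethanol library 2. The 3 of them with the smallest p in all 16 libraries were positive among libraries 1 and 2 and negative among libraries 3 and 4. Acute phase proteins had 13 positive of 27 and a median of -0.02, or 9 and -0.12 without that library.

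**Figure D4:**
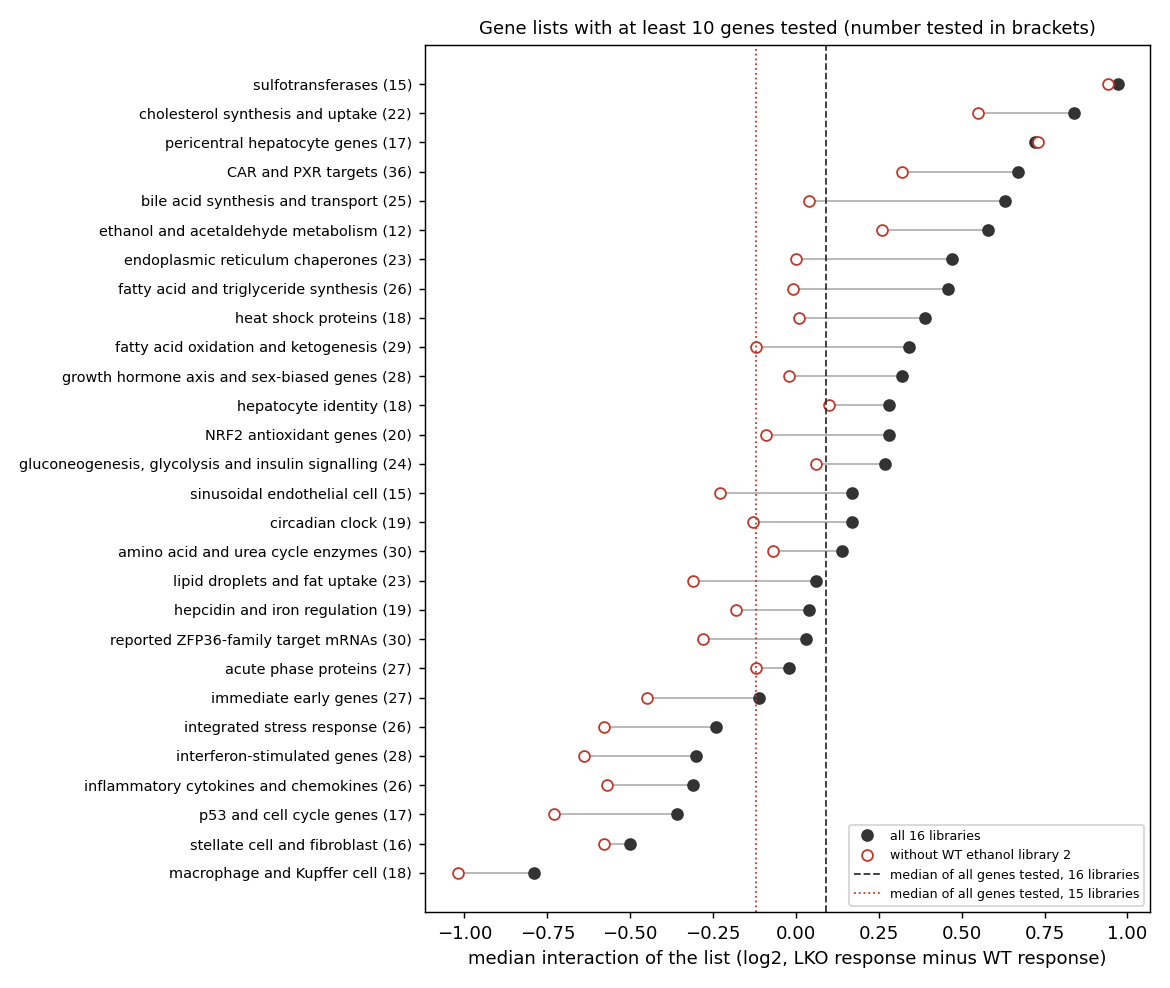
Median interaction of each gene list with at least 10 genes tested, filled for all 16 libraries and open without WT ethanol library 2, with the medians of all genes as dashed and dotted lines. Sulfotransferases, cholesterol genes and pericentral genes lie highest and macrophage markers lowest in both, and most lists move to lower values without that library, as the median of all genes does.

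The remaining lists gave at most 2 genes each at an unadjusted p under 0.05 with all libraries, and at most 3 without WT ethanol library 2, the immediate early genes, all negative. Ern1, the stress sensor IRE1 of the endoplasmic reticulum, had an interaction of 1.33, and the chaperone Hspa8 0.83. Among genes that differ between male and female liver, Selenbp2 had -2.39 and Cyp2b9 1.74, which became 1.10 (interval -0.08 to 2.28) without WT ethanol library 2. Selenbp2 was at 9.77, 17.1, 19.1 and 115 FPKM in LKO control and 2.41 to 7.77 in LKO ethanol. Sdsl, a serine dehydratase relative, rose in WT from 7.99 ± 1.73 to 40.6 ± 30 FPKM (SD, n = 4; limma adjusted p = 0.00544) and was at 8.07 ± 1.31 and 15.4 ± 2.43 in LKO. Its interaction of -1.14 became -0.72 without WT ethanol library 2, which was at 85.1 FPKM against 19.7 to 30.3 in the other 3, and the LKO rise of 0.86 then passed the test (adjusted p = 0.0219, against 0.408 with all libraries).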

How the data were processed

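The authors deposited 1 table of FPKM values for 16 libraries. Per the submitters' processing notes, fastp, STAR 2.6.1, HTSeq, DESeq2 and the mm10 build were used, and their roles are not given there. Annotation, the handling of multi-mapped reads and strandedness are not given in the sources used here, so antisense and overlapping genes cannot be separated. Symbols and positions came from GENCODE M21 on GRCm38, the same assembly as mm10, and 34490 of 35275 IDs had a symbol. A library's group was read from its treatment label.

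FPKM was tested as log2(FPKM + 1), which understates changes of low genes. In R 4.3.3, limma 3.58.1 fitted a group-means model (lmFit, eBayes with trend) to the 11298 genes with an FPKM of at least 1 in at least 4 libraries, with two-sided tests, Benjamini-Hochberg adjustment and a threshold of 0.05. An effect called in 1 genotype alone does not show a difference between genotypes; the interaction tests that. Whole reads were recovered from the FPKM steps for 100% of 24377 genes above 0, and served for depth and for an alternative fit with limma voom, which called 0 interactions. The fit was also run on simulated reads with known interactions. Those reads had the same spread setting in all libraries, no library with a deviant profile and no split within groups, so that run does not cover these features.

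Named were Zfp36l1 and Fgf21, the 12 genes per direction with the smallest interaction p (skipping pseudogenes, predicted genes and IDs lacking a symbol), up to 3 genes per list by that p, the 5 genes per direction with the largest called mean ethanol response, and genes apart in opposite directions. Relatives of Zfp36l1, Fgfr1, genes called when a library was left out, and genes apart in opposite directions without WT ethanol library 2 were added. The members, the 36 gene lists and the alternatives were chosen with earlier results of these data known. Alternatives changed the pseudocount, filter, scaling, variance model, weights and sample set, or added the side of the split as a term. No exact permutation test of an interaction exists in this design. One gene that the naming rule selects is not reported here.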

Additional observations from a re-analysis of the deposited data

Results flagged for a closer look

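The single-library values below lay apart from the other 3 of their group by more than Dixon's 95% critical value for 4 samples, taken on log2(FPKM + 1). Of 300 gene and group pairs of the genes named, 19 were so marked (6.33%), 3 of them in WT ethanol library 2. Chance marks about 1 in 20 where genes are not chosen by their values, and many of these were. Rcl1 and Paics were named because their groups were apart once that library was left out, which favours a mark there. None of the marked values is given an explanation.

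In LKO control, Fgf21 was 13.1 FPKM in library 3 against 6.47 to 7.04, Uap1l1 2.53 in library 2 against 1.95 to 1.97, G6pc 86.9 in library 2 against 210 to 231, Sult3a1 1.56 in library 4 against 125 to 135, Mup3 9590 in library 4 against 2853 to 3202, and Timp1 0.237 in library 4 against 0.14 to 0.149. In LKO ethanol, Uap1l1 was 4.39 FPKM in library 2 against 1.44 to 1.77, Gsta1 218 in library 2 against 4.07 to 5.44, and Aldh1a1 305 in library 3 against 333 to 337.

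In WT control, Lcn2 was 55.3 FPKM in library 3 against 12.3 to 15, Cry1 20.7 in library 3 against 4.42 to 5.38, Ces3a 473 in library 4 against 394 to 405, Ccne1 0.768 in library 4 against 0.39 to 0.44, and Selenbp2 18.8 in library 4 against 5.78 to 6.13. In WT ethanol, Sult3a1 was 14.7 FPKM in library 1 against 0 to 0.431, Il33 2.34 in library 2 against 0.927 to 1.08, Rcl1 6.5 in library 2 against 64.3 to 89.4, Paics 10.4 in library 2 against 96.2 to 113, and Ppp1r3g 5.37 in library 3 against 0.257 to 0.392.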

How the results depend on the processing

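The count of genes called for the interaction was 0 under all alternatives except 3: it was 506 with array weights, 11 with array weights by REML (added after seeing the data, and stopped before converging), and 6 without WT ethanol library 1, so that leaving out 1 library gave 0 to 6. The count at an unadjusted p under 0.05 ranged from 255 to 971 when 1 library was left out (971 without WT ethanol library 1, 579 without LKO ethanol library 2). It was 919 with no filter on low values, 132 with a mean FPKM of at least 5, 599 with quantile normalization, 2547 with array weights and 1742 with REML weights. Without WT ethanol library 2 it was 589 with median-of-ratios scaling, 681 with quantile normalization and 960 with the side of the split as a term. Quantile normalization moved the positive share from 158 of 362 to 310 of 599, and median-of-ratios scaling to 333 of 543.

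Of the 75 genes described, 66 kept the sign of their interaction under all alternatives run. Many were chosen by their interaction p in these libraries, which favours this, and the share over all genes is not given. The values within each side of the split are not among these alternatives. Zfp36 became -0.58 without WT ethanol library 2, -1.08 with array weights, -0.62 with REML weights and, without that library, -0.43 with median-of-ratios scaling, -0.40 with quantile normalization, -0.47 with the side term and -0.60 with voom on recovered reads. It ranged from -0.58 to 0.82 when 1 library was left out. Array weights gave -0.35 for Fgf21, 0.09 for Cyp2b10 and -0.56 for A1bg. A pseudocount of 0.1 gave 0.07 for Zfp36l2 and 0.16 for Cdkn1a, and a pseudocount of 5 gave 0.01 for Cyp2b10. Voom gave 0.07 for Zfp36l2 and 0.22 for Cdkn1a. Without WT ethanol library 2, Cdkn1a was 0.02 with median-of-ratios scaling and 0.10 with voom, and A1bg -0.19 with the side term and -0.50 with voom. The causes were not tested. When 1 library was left out, Zfp36l2 ranged from -0.62 to 0.31, Cyp2b10 from -0.74 to 0.02, Gstm3 from -1.19 to 0.01, Cdkn1a from -0.76 to 0.53, A1bg from -0.18 to 1.27, Rcl1 from -0.93 to 0.27 and Paics from -0.94 to 0.17. Of the 75 genes, 26 had a value that moved by over 1.5 times when some 1 library was left out. Besides those given here and in the report, Lcn2 ranged from -2.41 to -1.23, Ces3a from 0.47 to 1.76, Slco1a1 from -2.48 to -0.98, Mup3 from 0.28 to 2.31, Nupr1 from -1.10 to -0.57 and Mcm6 from -1.36 to -0.66. Also, Zfp36l1 ranged from -0.54 to -0.08, Fgf21 from 0.46 to 1.95 and Gsta1 from -2.99 to -1.06. WT ethanol library 2 had the fewest reads, and how far its depth limits the results was not tested. The labels give no replicate numbers and state no pairing, so no fit was blocked on pairs of libraries, although some titles are numbered consecutively.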
